A study of Mus musculus with 74 samples.

Results

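Single nuclear slices that held little of the genome were compared with slices that held much of it, in genome architecture mapping (GAM) libraries of mouse embryonic stem cells. Each library held 1 nuclear profile (1NP), the part of 1 nucleus that fell in a single thin cryosection, and scored every 40 kb window of the mm9 genome as positive or negative. Coverage was the percent of the 61816 windows of chromosomes 1 to 19 that were positive. Of 74 libraries, 5 had a coverage below 1% and were set aside, and the remaining 69 were ranked. The 23 libraries with the lowest coverage (low-coverage set) were compared with the 23 with the highest (high-coverage set), 46 libraries in all, and the 23 between them are given as an intermediate set. The members were therefore chosen by the measured coverage, which is given as a description and was not tested.

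All libraries came from 46C-ES cells of strain 129/Ola, a male line with a reporter gene at the Sox1 locus, grown on gelatin with LIF and re-plated in serum-free medium before harvest. There was no treatment and no second genotype. The labels do not say whether profiles came from separate cultures, so that p-values here measure the spread between these libraries. The assay reads DNA only, and the cell type could not be checked against expressed markers. The position of a slice within its nucleus was not recorded in the labels. A small slice and poor recovery of DNA from a large one cannot be told apart from coverage alone.

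GAM reads spatial proximity from joint capture, since a thin slice tends to include or miss neighbouring DNA as a unit. Each chromosome occupies its own territory, so a plane through the nucleus crosses some territories and misses others, and DNA of a crossed territory appears as runs of adjacent positive windows. Mouse autosomes are telocentric, with the centromere at the start of the assembled sequence, and centromeres gather in clusters called chromocentres. A plane near the edge of a nucleus is smaller than one through its middle and meets fewer territories.

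A window with tandem repeats was called even in the emptiest libraries. Among the 5 libraries below 1%, whose coverage ran from 0.0210% to 0.827%, the windows positive in at least 3 were chr2:98480001-98520000 and the mitochondrial genome. Both were positive in 5 of these 5 libraries and in all 23 libraries of the low-coverage, intermediate and high-coverage sets. The chromosome 2 window holds neighbouring repeat copies, of which 1 stretch is printed from the reference because its window was called in every library, at any coverage, which says nothing of the number of reads there, and whether reads from repeat copies elsewhere were counted in it was not tested. The stretch lies at chr2:98506940-98507190 (mm9, plus strand), within an exon of the annotated gene Gm10800 that runs from 98506892 to 98507197 on the minus strand. It has 251 bases, of which 7 differ from the 251 bases that follow it (97.2% identity). Its last 17 bases equal its first 17, so that it holds a unit of 234 bases and 17 bases more. Capitals mark the 7 differing bases.
Repeat stretch in the chromosome 2 window: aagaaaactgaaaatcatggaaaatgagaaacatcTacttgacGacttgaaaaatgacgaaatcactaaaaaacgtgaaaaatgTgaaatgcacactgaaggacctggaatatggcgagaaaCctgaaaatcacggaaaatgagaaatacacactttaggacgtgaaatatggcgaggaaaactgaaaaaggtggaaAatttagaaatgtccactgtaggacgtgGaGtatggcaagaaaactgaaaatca

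Coverage in the low-coverage set ran from 1.68% in f14f7 through a median of 3.63% to 4.46% in f13c5, and averaged 3.37% ± 0.824 (SD, n = 23). In the high-coverage set it ran from 7.35% in f13c2 through a median of 8.30% to 13.5% in f14b3, and averaged 8.99% ± 1.67 (SD, n = 23). The sets do not overlap because they were ranked on this value. The lowest libraries after f14f7 were f14g2 with 1.69% and f14d3 with 2.12%, and just inside the upper limit of that set were f14f6 with 4.43% and f13d3 with 4.35%. The first library outside it was f14a2 with 4.51%. In the high-coverage set the lowest libraries after f13c2 were f13a2 with 7.58% and f13f1 with 7.72%, and the highest before f14b3 were f14b1 with 12.7% and f14c5 with 11.5%. The library just below that set was f14c4 with 7.19%. Counted in windows, libraries held 2084 ± 509 autosomal calls in the low-coverage set and 5556 ± 1033 in the high-coverage set (SD, n = 23 each). The file keeps calls and no reads, so that sequencing depth is unknown. Library names start with f13 or f14, which the labels do not explain. The low-coverage set held 7 f13 and 16 f14 libraries, the intermediate set 11 and 12, and the high-coverage set 13 and 10, so values are also given within each prefix.

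Calls of low-coverage libraries lay in shorter and more broken runs, with a smaller contrast among f13 than among f14 libraries. A run of adjacent positive windows averaged 1.78 ± 0.463 windows (SD, n = 23) in the low-coverage set, 1.94 ± 0.332 in the intermediate set and 2.57 ± 0.497 in the high-coverage set. The low-coverage set ran from 1.10 through a median of 1.73 to 2.77 windows, and the high-coverage set from 1.61 through a median of 2.58 to 3.83 windows. The ranges overlapped, with 22 of 23 high-coverage libraries above the low-coverage median and 11 of 23 low-coverage libraries below every high-coverage one. Calls placed at random would give runs of 1.03 and 1.10 windows at these coverages. Measured runs were 1.72 ± 0.442 and 2.34 ± 0.433 times as long as random ones, so that a difference between the sets remained after scaling for coverage. Among f13 libraries these values were 2.15 ± 0.292 in the low-coverage set (SD, n = 7) and 2.28 ± 0.331 in the high-coverage set (SD, n = 13), and among f14 libraries 1.53 ± 0.353 (SD, n = 16) and 2.42 ± 0.546 (SD, n = 10), so that among f13 libraries the sets differed by less than 1 SD. No test was made, because a missed window lowers coverage and splits a run at the same time. The high-coverage set had 2.67 times as many calls and 1.83 times as many runs as the low-coverage set.

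Calls with no positive neighbour on either side (isolated calls) made up 40.5% ± 18.4 of autosomal calls in the low-coverage set and 20.1% ± 7.53 in the high-coverage set (SD, n = 23 each), with 31.3% ± 9.76 in the intermediate set. The low-coverage set ran from 15.6% through a median of 35.1% to 84.5%. The high-coverage set ran from 8.83% through a median of 17.6% to 43.7%. Of the low-coverage libraries, 10 lay above every high-coverage library, and f14g2 and f14f7 stood highest with 84.5% and 70.6%. The longest run of a library averaged 13.8 ± 5.33 windows in the low-coverage set and 31.6 ± 11.1 windows in the high-coverage set. Runs of at least 10 windows, which span 400 kb or more, held 4.12% ± 5.08 of calls in the low-coverage set and 14.9% ± 8.75 in the high-coverage set. All 23 high-coverage libraries exceeded the low-coverage median of 2.32%, and 14 low-coverage libraries lay below every high-coverage one. Unlike mean run length, the isolated share, the longest run and the share in long runs were not scaled for coverage. How much of their difference follows from the number of calls was not tested.

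**Figure D1:**
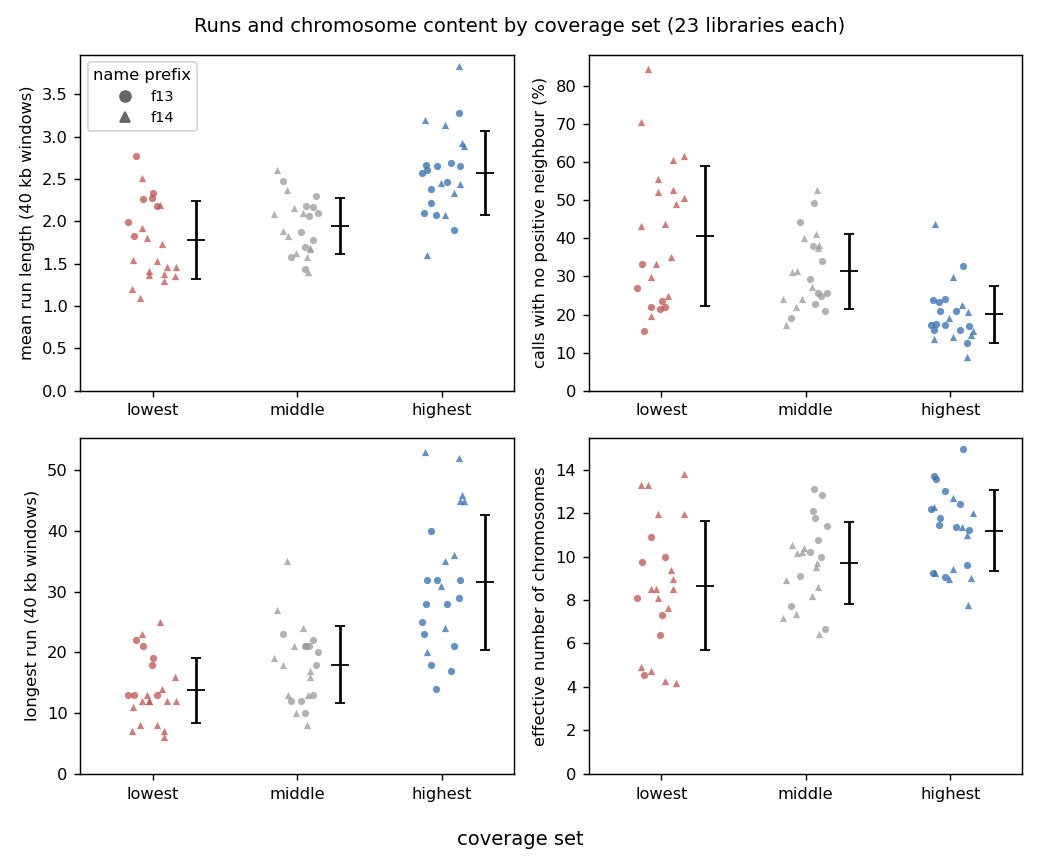
Mean run length, percent of isolated calls, longest run and effective number of chromosomes (vertical axes) in each library of the lowest, middle and highest coverage set (horizontal axis). Points are libraries, circles f13 and triangles f14, and black bars are the mean and SD over 23 libraries. Mean run length rose from 1.78 to 2.57 windows from the lowest to the highest set while the sets overlapped.

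The contrast in runs was unequal between the name prefixes. Among f13 libraries, runs averaged 2.23 ± 0.297 windows in the low-coverage set (SD, n = 7) and 2.48 ± 0.357 in the high-coverage set (SD, n = 13). Among f14 libraries they averaged 1.58 ± 0.373 (SD, n = 16) and 2.69 ± 0.638 windows (SD, n = 10). Isolated calls made up 23.6% ± 5.45 of calls in the low-coverage f13 libraries and 47.9% ± 17.1 in the low-coverage f14 libraries, against 19.95% ± 5.25 and 20.2% ± 10.1 in the high-coverage ones. The 10 low-coverage libraries with more isolated calls than any high-coverage library were all f14 libraries. The difference between the prefixes was not tested for these measures, and its part in the comparison of the sets was not tested either.

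Over all autosomes, which include the windows used for ranking, calls of low-coverage slices lay on fewer chromosomes, and this difference was small on autosomes kept out of the ranking. Chromosome content was summarised by the effective number of chromosomes, the count of equally represented autosomes that would give the same concentration of calls. It would be 17.9 if calls were spread evenly along all 19 autosomes, and random loss of calls does not bias it. It averaged 8.65 ± 2.97 in the low-coverage set, 9.69 ± 1.88 in the intermediate set and 11.2 ± 1.85 in the high-coverage set (SD, n = 23 each). The low-coverage set ran from 4.20 through a median of 8.51 to 13.8, and the high-coverage set from 7.76 through a median of 11.4 to 14.9. Of the low-coverage libraries, 8 lay below every high-coverage library, and the others lay within the range of the high-coverage set. Within prefixes it averaged 8.14 ± 2.23 in the low-coverage set (SD, n = 7) and 11.8 ± 1.78 in the high-coverage set (SD, n = 13) among f13 libraries, and 8.88 ± 3.28 (SD, n = 16) and 10.4 ± 1.69 (SD, n = 10) among f14 libraries. The chromosome with most calls held 21.3% ± 8.37 of a library's calls in the low-coverage set and 15.95% ± 3.29 in the high-coverage set.

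In single libraries some chromosomes held a large share of the calls and others were nearly missing. In f13d1, with a coverage of 3.05%, chromosome 6 held 38.7% of the calls and was covered 9.80 times as densely as the other autosomes. In f14d3 chromosome 2 held 38.7% of the calls with a relative coverage of 7.94, and in f14d7 chromosome 6 held 35.1% with a relative coverage of 8.41. Of these libraries, f13d1 and f14d7 were named after their values had been seen. A relative coverage over 4 occurred in 21 of 437 pairs of a chromosome and a library in the low-coverage set. There were 11 such pairs in the intermediate set and 2 in the high-coverage set. A relative coverage over 2 was nearly as frequent in each set, with 80 (18.3%), 79 (18.1%) and 70 (16.02%) pairs in the same order. An autosome was counted as missed where its coverage was below 0.1 times that of the other autosomes. This was the case for 137 of 437 pairs (31.4%) in the low-coverage set, 99 (22.7%) in the intermediate set and 70 (16.02%) in the high-coverage set. A low-coverage library missed 5.96 ± 3.36 autosomes and a high-coverage library 3.04 ± 2.55 (SD, n = 23 each). With a limit of 0.25 the pairs below it numbered 166 (37.99%), 127 (29.1%) and 98 (22.4%), and both limits were chosen after the data had been seen. Chromosomes 3, 17 and 19 were each missed in 11 low-coverage libraries, against 3, 2 and 5 high-coverage libraries, and chromosome 6 was missed in 2 low-coverage, 4 intermediate and 2 high-coverage libraries.

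A slice that misses a chromosome loses that chromosome's windows from its coverage, so the ranking itself favours a low chromosome content at the lower end. To see how far this went, libraries were ranked on odd-numbered autosomes and described on the 9 even-numbered ones. The new low-coverage set shared 21 of 23 libraries with the original and the new high-coverage set 19 of 23. Coverage of the even-numbered autosomes still differed, with 3.71% ± 1.49 in the low-coverage set and 7.62% ± 3.51 in the high-coverage set. Run length on them was 1.74 ± 0.420 and 2.39 ± 0.577 windows, and isolated calls made up 41.1% ± 17.3 and 23.8% ± 10.7. The effective number of chromosomes among these 9 was 4.66 ± 1.36 in the low-coverage set, 4.66 ± 1.40 in the intermediate set and 5.02 ± 1.52 in the high-coverage set. Missed pairs made up 27.1%, 20.8% and 18.8% of 207 in the same order. On these chromosomes the effective numbers differed by much less than 1 SD. The run lengths there are no check that is independent of the ranking, since most libraries stayed in their set, coverage still differed and a missed window still lowers coverage and splits a run.

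Scattered and compact slices both occurred among low-coverage libraries. f14f7 and f14g2, the lowest in coverage, combined 70.6% and 84.5% isolated calls with 13.3 effective chromosomes each, above the high-coverage median of 11.4. At the other end, f13d1 had 15.6% isolated calls and 4.57 effective chromosomes, with runs of 2.77 windows that exceeded the high-coverage mean. The third-lowest library, f14d3, fell on neither side, with 48.97% isolated calls and 4.20 effective chromosomes. Across the 23 low-coverage libraries the 2 measures had r = 0.55, and 0.36 without the 2 libraries farthest from the median of isolated calls. Within prefixes r was 0.64 over the 16 f14 libraries and 0.54 over the 7 f13 libraries, and in the high-coverage set it was 0.083. Permutation tests of 6 such relations were run and are not used, because both measures come from the calls that set coverage and the relation was looked for after the data had been seen.

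**Figure D2:**
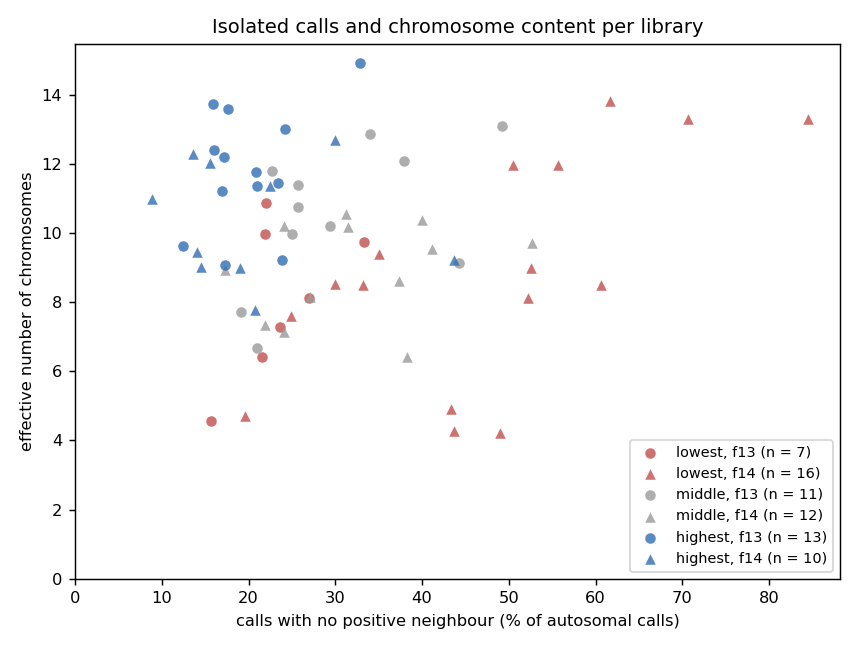
Percent of isolated calls (horizontal axis) against the effective number of chromosomes (vertical axis), 1 point per library, coloured by coverage set with circles for f13 and triangles for f14. Low-coverage libraries ran from f13d1 with 15.6% and 4.57 to f14g2 with 84.5% and 13.3, while high-coverage libraries stayed at or below 43.7% isolated calls.

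Co-segregation, the presence of a pair of windows in the same slice, was scaled for coverage in several ways. The ratio of the share of pairs with both windows positive to the squared coverage of the library does not change when calls are lost at random. For adjacent windows it was 11.95 ± 4.05 in the low-coverage set and 6.78 ± 1.195 in the high-coverage set (SD, n = 23 each). At 1 Mb it was 5.68 ± 1.71 and 3.73 ± 0.786, at 10 Mb 2.66 ± 0.934 and 1.97 ± 0.473, and at 50 Mb 2.09 ± 1.04 and 1.55 ± 0.339. All 23 high-coverage libraries lay below the low-coverage median at 1 Mb, and 15 of 23 low-coverage libraries lay above every high-coverage one. The ratio has the ranked coverage in its denominator and cannot exceed about the inverse of coverage. Its upper limit is therefore higher in the low-coverage set by construction. How much of the separation follows from this was not tested. Pairs on different chromosomes gave 0.919 ± 0.0559 and 0.962 ± 0.0168. By this ratio over all autosomes, the low-coverage mean was higher at each of the 7 distances measured from 0.04 to 50 Mb. The order at 10 Mb did not hold away from the chromosomes used for ranking, and distances over 10 Mb were not measured there. On even-numbered autosomes, with libraries ranked on odd-numbered ones, the ratio at 10 Mb was 2.34 ± 0.607 in the low-coverage set, 2.45 ± 0.932 in the intermediate set and 2.43 ± 1.199 in the high-coverage set. At 1 Mb it was 5.71 ± 2.87, 4.91 ± 1.82 and 4.45 ± 1.73 in the same order. Within prefixes over all autosomes, the ratio at 1 Mb was 6.53 ± 1.59 (SD, n = 7) and 3.58 ± 0.703 (SD, n = 13) in the low-coverage and high-coverage f13 libraries, and 5.30 ± 1.66 (SD, n = 16) and 3.94 ± 0.876 (SD, n = 10) in the f14 libraries.

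The correlation of calls at a distance, which lost calls do lower, ordered the sets the other way. For adjacent windows it was 0.381 ± 0.153 in the low-coverage set and 0.558 ± 0.0853 in the high-coverage set. At 1 Mb it was 0.161 ± 0.0624 and 0.265 ± 0.0744, and at 50 Mb 0.0348 ± 0.0274 and 0.0547 ± 0.0337. Within prefixes the correlation at 1 Mb was 0.201 ± 0.0437 (SD, n = 7) and 0.230 ± 0.0528 (SD, n = 13) in the low-coverage and high-coverage f13 libraries, and 0.143 ± 0.0622 (SD, n = 16) and 0.309 ± 0.0767 (SD, n = 10) in the f14 libraries. The window next to a positive one was itself positive in 40.1% ± 15.1 of cases in the low-coverage set and in 59.7% ± 7.99 in the high-coverage set. Which set appeared to co-segregate more thus depended on the scale.

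Scaling each pair by the coverage of its own chromosome, a choice added after seeing the data, gave means that lay closer together at long distances over all autosomes. This scaling by itself brings the average over all pairs of a chromosome near 1 in any library, so that the closeness is in large part built in. At 4 Mb this ratio was 1.45 ± 0.252 in the low-coverage set, 1.45 ± 0.166 in the intermediate set and 1.43 ± 0.248 in the high-coverage set. At 10 Mb it was 1.16 ± 0.267 and 1.19 ± 0.196, and at 20 Mb 1.13 ± 0.215 and 1.06 ± 0.135. At 50 Mb it was 0.853 ± 0.227 and 0.938 ± 0.104, in both sets below the 1 that even placement within a chromosome gives. At short distances the low-coverage set remained higher in the mean, with 5.26 ± 1.47 against 4.15 ± 0.769 for adjacent windows and 2.49 ± 0.566 against 2.26 ± 0.350 at 1 Mb. The high-coverage mean minus the low-coverage mean was -0.23 at 1 Mb. It was -0.016 at 4 Mb and 0.029 at 10 Mb. For pairs 20 Mb apart it was -0.071 and for pairs 50 Mb apart 0.084. Each of these was less than 1 SD of either set. On even-numbered autosomes, with ranking on odd-numbered ones, the ratio at 10 Mb was 1.14 ± 0.205 in the low-coverage set, 1.21 ± 0.316 in the intermediate set and 1.26 ± 0.342 in the high-coverage set, so that it came no closer there than the ratio to library coverage. No test was made of co-segregation, for the same reason as for run length.

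**Figure D3:**
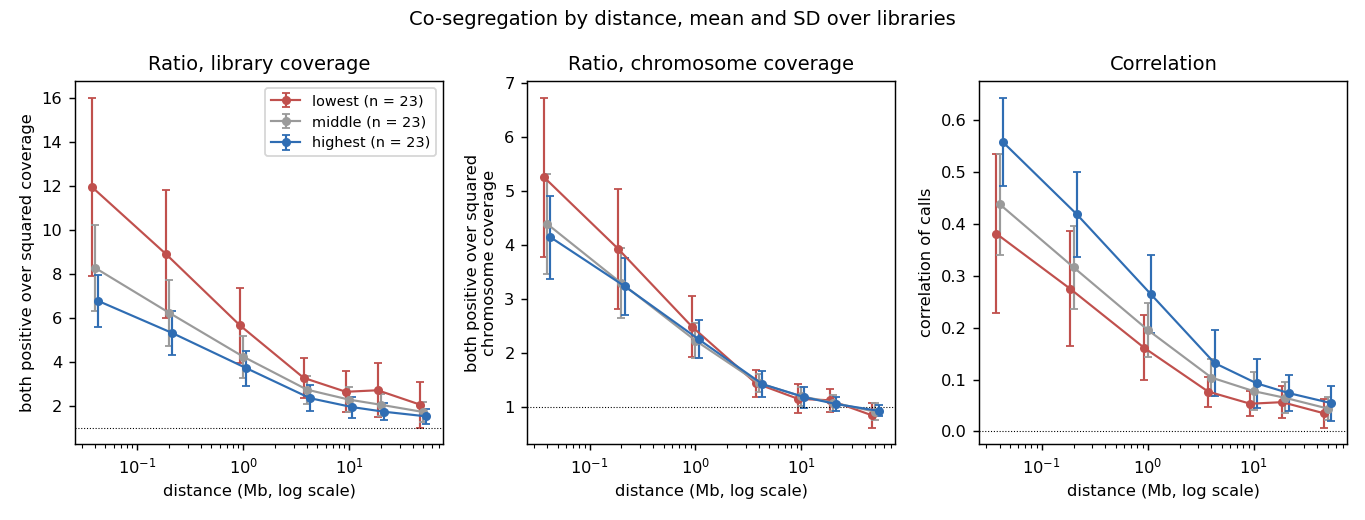
Co-segregation against genomic distance (Mb, log axis) as the ratio to squared library coverage, the ratio to squared chromosome coverage and the correlation of calls, with the mean and SD over 23 libraries for each coverage set. The lowest set is highest in the first panel (5.68 against 3.73 at 1 Mb) and lowest in the third (0.161 against 0.265), and the means differ by less than 0.1 from 4 Mb on in the middle panel.

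Where calls lay along the genome, relative to their number, was tested. The ranking used the number of autosomal calls and not their place, but the same calls enter both, so results with ranking and measurement on different autosomes are given as well. In that setting none of the 5 measures passed either (lowest permutation p = 0.171, adjusted p = 0.854). The 5 measures were compared by two-sided permutation of libraries between the sets (100000 permutations) with Benjamini-Hochberg adjustment over the 5, and none passed 0.05 before or after adjustment. Centromere-proximal coverage, over the first 10 Mb after the unsequenced 3 Mb of each autosome, was set against that of the rest. This ratio was 0.998 ± 0.683 in the low-coverage set and 1.26 ± 0.481 in the high-coverage set (SD, n = 23 each). The difference of 0.27 ± 0.17 (SE) did not pass (p = 0.134, adjusted p = 0.436), although 19 of 23 high-coverage libraries lay above the low-coverage median of 0.781. Single low-coverage libraries ran from 0.0736 to 2.64. The direction turned between prefixes, from 1.17 and 1.09 in the low-coverage and high-coverage f13 libraries to 0.925 and 1.49 in the f14 libraries. Among f14 libraries alone the difference of 0.56 had a permutation p of 0.0157 and an adjusted p of 0.0783, and the difference between prefixes did not pass (permutation p = 0.0803, adjusted 0.172 over the 5 measures). With libraries permuted within each prefix, the difference between the sets was 0.29 (permutation p = 0.117, adjusted p = 0.292), and none of the 5 measures passed.

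The telomere-proximal ratio, for the last 10 Mb of each autosome, was 0.985 ± 0.520 in the low-coverage set and 1.02 ± 0.420 in the high-coverage set (permutation p = 0.817). It turned between prefixes, from 0.847 and 1.17 in the low-coverage and high-coverage f13 libraries to 1.04 and 0.821 in the f14 libraries, and the difference between prefixes did not pass (permutation p = 0.0661, adjusted p = 0.172). Coverage of windows that overlap a protein-coding gene over that of other windows was 1.15 ± 0.213 and 1.08 ± 0.120 (permutation p = 0.174, adjusted p = 0.436). Both sets thus lay above 1 in the mean, with 16 and 17 of 23 libraries above 1. The mean GC content of positive windows exceeded that of all windows by 0.134 ± 0.494 percentage points in the low-coverage set and by 0.0937 ± 0.493 in the high-coverage set (permutation p = 0.783). Here too the prefixes went opposite ways, with 0.126 and 0.305 percentage points in the f13 libraries and 0.137 and -0.180 in the f14 libraries, and the difference between prefixes did not pass (permutation p = 0.103, adjusted p = 0.172). The gene window ratio was lower in the high-coverage set in both prefixes, with 1.17 and 1.12 in f13 and 1.14 and 1.03 in f14 libraries. Isolated calls had a mean GC content of 41.96% ± 0.487 in the low-coverage set, within 1 SD of the 41.9% of all windows. At this number of libraries the differences in these measures were smaller than the spread between libraries.

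The X chromosome, whose windows took no part in the ranking and of which a male cell has a single copy, was covered 0.342 ± 0.557 times as densely as the autosomes in the low-coverage set and 0.252 ± 0.392 times in the high-coverage set (permutation p = 0.539). The medians were 0.101 and 0.0995. Among f13 libraries the means were 0.184 and 0.328 and among f14 libraries 0.411 and 0.154, and the difference between prefixes did not pass (permutation p = 0.183, adjusted p = 0.229). X coverage was below 0.1 times autosomal coverage in 11 of 23 low-coverage, 9 of 23 intermediate and 12 of 23 high-coverage libraries. X was more densely covered than the autosomes in 2 of 23 low-coverage, 6 of 23 intermediate and 2 of 23 high-coverage libraries. The intermediate set had the highest mean ratio, 0.565 ± 0.652 (SD, n = 23), and was not tested.

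**Figure D4:**
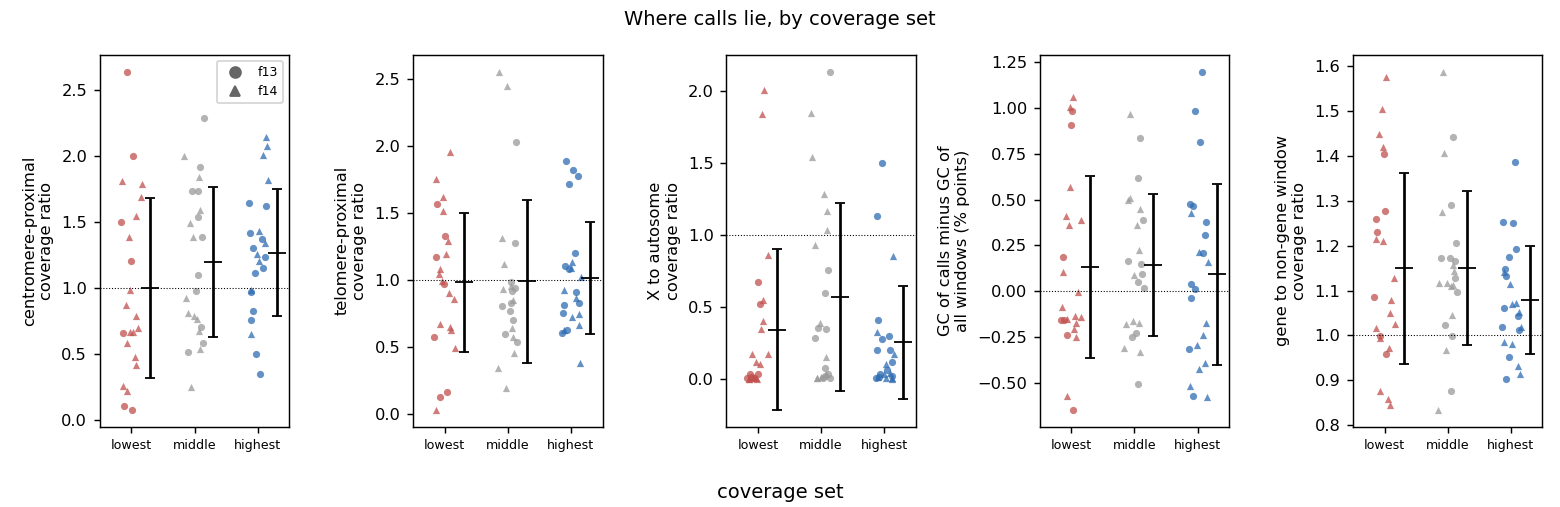
Centromere-proximal, telomere-proximal, X to autosome and gene to non-gene coverage ratios and GC excess in percentage points (vertical axes) for each library of the lowest, middle and highest coverage set (horizontal axis), circles f13 and triangles f14. Black bars are the mean and SD over 23 libraries and overlap between sets in every panel. Dotted lines mark even placement, except in the X to autosome panel. There the line marks equal density, although a male cell has a single X copy.

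The coverage of each autosome relative to the other autosomes was compared between the sets. Of 19 autosomes tested by permutation, 0 passed an adjusted p of 0.05 (0%) and 1 had an unadjusted p under 0.05 (5.26%). That autosome was chromosome 8, with a relative coverage of 1.35 ± 1.30 in the low-coverage set and 0.669 ± 0.719 in the high-coverage set (permutation p = 0.0324, adjusted p = 0.392). With libraries permuted within each prefix, chromosome 8 had a permutation p of 0.0643, and chromosome 5 was the 1 autosome with an unadjusted p under 0.05 (0.0453, adjusted 0.552). The difference lowest in value was that of chromosome 5, with 1.96 ± 2.18 and 1.03 ± 0.981 (permutation p = 0.0686, adjusted p = 0.392). The highest was that of chromosome 17, with 0.649 ± 0.892 and 1.15 ± 0.892 (permutation p = 0.0624, adjusted p = 0.392). With libraries ranked on odd-numbered autosomes for the even-numbered ones and the other way round, 0 of 19 passed (2 had an unadjusted p under 0.05). The lowest p was then that of chromosome 5, with 2.97 and 0.577 times the coverage of the other odd-numbered autosomes in the low-coverage and high-coverage set (permutation p = 0.00505, adjusted p = 0.0959). Across the 19 autosomes the difference between sets had r = 0.085 with the share of windows that hold a gene, 0.052 with GC content and -0.22 with length, given as descriptions, since chromosomes share the same libraries.

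**Figure D5:**
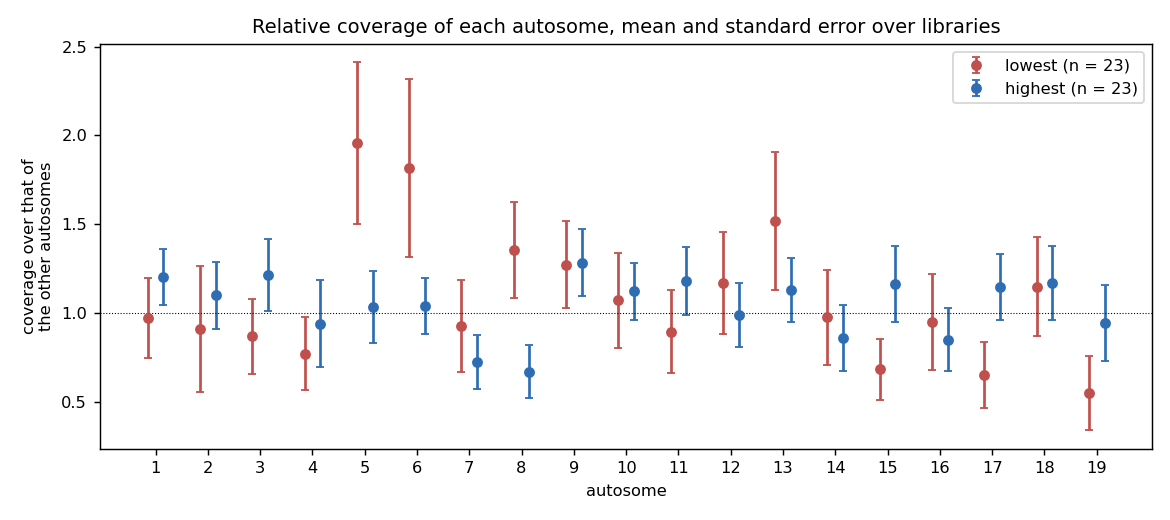
Coverage of each autosome (horizontal axis) over that of the other autosomes (vertical axis, ratio) in the lowest and the highest coverage set, as the mean and standard error over 23 libraries. Means differ most on chromosomes 5, 6 and 8, which are higher in the lowest set, and on 17, 15, 19 and 3, which are higher in the highest set by 0.50, 0.48, 0.40 and 0.35, while chromosome 13 is lower there by 0.39, and 0 of 19 differences passed the adjusted threshold.

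Segments of 10 Mb were compared by the share of a library's autosomal calls that they held. Of 248 segments, 0 passed an adjusted permutation p of 0.05 (0%) and 14 had an unadjusted p under 0.05 (5.65%), 10 higher and 4 lower in the high-coverage set. With 17 libraries in each set, 32 segments had an unadjusted p under 0.05 (12.9%, lowest adjusted p = 0.0893), and with the libraries below 1% kept there were 22 (8.87%). The segment with the lowest p, chr15:40000001-50000000, held 0.116% ± 0.353 of calls in the low-coverage set and 0.610% ± 0.646 in the high-coverage set (SD, n = 23 each; permutation p = 0.00181, adjusted p = 0.303). Permuted within each prefix, it had a p of 0.00752 (adjusted 0.571), and with libraries ranked on even-numbered autosomes a permutation p of 0.0248 (adjusted 0.501). It had at least 1 call in 7 of 23 low-coverage and 17 of 23 high-coverage libraries. Of all 248 segments, a low-coverage library had calls in 117.9 ± 38.6 and a high-coverage library in 161.1 ± 36.6 (SD). A gap in this direction thus goes with the number of calls, on which the sets were ranked. With the libraries below 1% kept, the sets held 24 libraries each, with those 5 in the lower one, and this segment passed (permutation p = 2e-05, adjusted p = 0.00496). chr3:70000001-80000000 held 0.262% and 0.805% (permutation p = 0.0266, adjusted p = 0.649). On the other side, chr6:100000001-110000000 held 0.826% in the low-coverage set and 0.247% in the high-coverage set (permutation p = 0.0168, adjusted p = 0.521), and chr8:80000001-90000000 held 0.695% and 0.181% (permutation p = 0.0224, adjusted p = 0.616). An even spread gives each of these segments 0.404% of calls.

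Windows of pluripotency genes show what the sets offer at single loci. The list held 16 genes, of which 15 were found in the annotation, and each was placed by the window of its transcription start. Pou5f1 and Nanog, transcription factors of the core pluripotency network, were positive in 1 and 2 of 23 low-coverage libraries and in 3 and 2 of 23 high-coverage libraries. Sox2, the partner of Pou5f1, was positive in 1 low-coverage and 0 high-coverage libraries, and Sall4, a zinc finger factor, in 3 and 4. A count of 0 of 23 allows a share of up to about 13.04%, by the approximation of 3 over the number of libraries. All 15 windows were positive at least once in the low-coverage set, where 53.1% of all autosomal windows were. In the high-coverage set 12 of 15 were (80.0%), against 85.3% of all autosomal windows, and Sox2, Zfp42 and Tbx3 had no call. Relative to all windows, the list was positive 1.89 times as often in the low-coverage set (22 calls) and 0.838 times as often in the high-coverage set (26 calls). The calls came from 11 of 23 low-coverage and 16 of 23 high-coverage libraries. Averaged over libraries the ratio was 1.82 ± 2.30 in the low-coverage set, with a median of 0 and a highest value of 6.93, and 0.837 ± 0.673 in the high-coverage set (SD, n = 23 each). Windows of Hox genes, which pattern the body axis, gave 1.61 and 0.816 and sit in a few clusters, so that 1 captured cluster counts several times. Their calls came from 8 of 23 low-coverage libraries, with 1.68 ± 3.15 and a median of 0 over libraries. Windows of olfactory receptor genes gave 0.944 and 0.997, those of vomeronasal receptor genes 0.767 and 0.896, and those of ribosomal protein genes 1.15 and 1.25. These lists were not tested.

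Taken as groups of libraries, the low-coverage slices detected 53.1% of autosomal windows at least once, the intermediate ones 71.8% and the high-coverage ones 85.3%. Of all autosomal windows, 29276 (47.4%) were detected in both the low-coverage and the high-coverage set. A further 23474 (37.97%) were detected in the high-coverage set and not in the low-coverage set. The other way round there were 3553 (5.75%), and 5513 (8.92%) were detected in neither. The sets were ranked on the number of calls, which by itself leaves more windows detected in the high-coverage set alone. The median window was positive in 1 low-coverage library and 2 high-coverage libraries. Pairs of libraries shared positive windows 1.15 ± 0.457 times as often as their coverages predict within the low-coverage set and 1.08 ± 0.225 times within the high-coverage set (SD, 253 pairs each, which share libraries). The 17 autosomal windows positive in over 15 of 74 libraries held 0.267% ± 0.155 of calls in the low-coverage set and 0.182% ± 0.0470 in the high-coverage set. In number, they held 5.70 ± 3.62 and 9.91 ± 2.17 calls per library in the same order. They were chosen by their calls in these same libraries. The repeat window on chromosome 2 was called in every library, so that its share falls as calls rise. The difference in share was not tested.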

How the data were processed

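The authors deposited 1 table with a 0 or 1 call for each of 68162 windows of 40 kb (mm9) in each of 74 1NP libraries. The deposited values are calls, which is neither a count nor a normalized signal. Bowtie2 (2.1) is named in the submitters' processing notes. The paper gives a fixed read threshold for positive 40 kb windows, in a methods section that opens with multiplex libraries. Whether it was used for the single-profile calls is not stated there. The effect of the read threshold on coverage and run length was not tested. All columns matched a sample by name. Reference chromosome lengths (NCBIM37) equalled the last window ends, and GENCODE vM1 placed genes.

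Coverage, runs, chromosome content and co-segregation were computed per library with Python 3.11.15 and numpy 2.4.6. Tests were two-sided permutations of libraries (100000, smallest p about 1e-05; exact within f13) with Benjamini-Hochberg adjustment, and 10000 permutations for differences between prefixes. A fit with the prefix as a block, permuting libraries within each prefix, was a late addition, made with the results known. GC content used the 59746 windows with under 10% unknown bases. Named libraries were the lowest and highest 3 of each set and those next to its limits, and f13d1, f14d7, f13d6 and f13e4 were added after their values had been seen. Rules named the autosomes and segments with the extreme differences and the windows positive in at least 3 libraries under 1%. Other autosomes (with 8 and those most often missed) and the Y window were named after their values had been seen. The members, lists and rules were chosen with earlier results of these data known. The scan over segments was tested on simulated data.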

Additional observations from a re-analysis of the deposited data

Results flagged for a closer look

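The mitochondrial window, which lies outside the autosomal comparison, was positive in 74 of 74 libraries. Windows of the Y chromosome without unknown bases, of which there are 64, also lay outside it. They were positive in 3.26% ± 7.92 of cases in the low-coverage set (48 calls in 8 of 23 libraries) and in 1.43% ± 2.86 in the high-coverage set (21 calls in 7 of 23 libraries, SD). The median was 0% in both sets. In the low-coverage set 43 of the 48 calls came from f13d6 (28.1%), f13c5 (25%) and f13e4 (14.1%), and without f13d6 the mean was 2.13%. Calls within a library are clustered, so limits are given over libraries. Of the 5 libraries below 1% coverage, 0 had a call in these 64 windows. The approximate limit of 3 over the number of libraries is then 60%, and it is coarse for so few libraries. The Y window positive most often was chrY:1760001-1800000, in 14 libraries. The difference between the sets in Y coverage was not tested.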

How the results depend on the processing

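No test of the 5 position measures passed its adjusted threshold under any alternative, and 97 of 112 alternative values kept their direction and their side of the threshold or stayed within the spread of the libraries. The lowest adjusted p was 0.0543 (unadjusted 0.0109), for the centromere-proximal ratio with the libraries under 1% kept. The gene window ratio had an unadjusted p of 0.036 with 17 libraries in each set (adjusted 0.180). Directions turned for 4 of the 5 measures, among them the centromere-proximal ratio, which has the lowest main p, and the cause was not tested. The telomere-proximal difference became -0.054 with 17 libraries in each set, -0.11 with libraries under 1% kept, -0.22 among f14 libraries, -0.077 for medians and -0.084 with ends of 20 Mb, and went from 0.032 to 0.32 among f13 libraries and to 0.082 with ends of 5 Mb. The centromere-proximal difference became -0.073 among f13 libraries. The X to autosome difference, -0.090, became 0.14 among f13 libraries and 0.10 with ranking on odd autosomes, and -0.26 among f14 libraries, and was -0.0017 for medians, -0.034 with 17 libraries in each set and -0.044 with libraries under 1% kept. The GC difference, -0.040, became 0.18 among f13 libraries, 0.030 with ranking on odd autosomes and 0.12 for medians, and -0.32 among f14 libraries (p = 0.0698, adjusted 0.175), -0.19 with libraries under 1% kept, -0.17 with 17 libraries in each set and -0.083 with isolated calls removed. The gene window difference, -0.070, was -0.13 with 17 libraries in each set, -0.11 among f14 libraries and -0.024 for medians. The difference in run length, 0.79 windows, was 0.25 among f13 libraries and 1.57 when runs were joined over 1 negative window. The correlation difference at 1 Mb was 0.029 among f13 and 0.166 among f14 libraries, against 0.104 over all. With libraries under 1% kept, 1 segment of 10 Mb, chr15:40000001-50000000, passed (adjusted p = 0.00496). The difference in effective chromosomes was 0.36 with ranking on odd autosomes, over 9 chromosomes, against 2.54. The co-segregation difference at 1 Mb, -1.94, was -1.20 with libraries under 1% kept, -3.27 with isolated calls removed, -2.95 among f13 libraries and -1.27 with ranking on odd autosomes. The centromere-proximal difference, 0.27, was 0.48 for medians (p = 0.0582, adjusted 0.291) and 0.56 among f14 libraries. The difference in effective chromosomes was 3.68 among f13 and 1.498 among f14 libraries. With the prefix as a block no measure, autosome or segment passed (lowest adjusted p = 0.292, 0.552 and 0.571), no direction turned, and 1 autosome and 19 segments had an unadjusted p under 0.05. With ranking on autosomes of the other parity, a setting added late, 0 autosomes and 0 segments passed (lowest adjusted p = 0.0959 and 0.362), with 2 and 24 at an unadjusted p under 0.05. With the block, the telomere-proximal difference was 0.0077, the GC difference -0.11, and the run length difference 0.74 windows. No paired analysis was possible because all libraries form 1 group and the labels pair none of them. Depth is unknown, which limits what low coverage and isolated calls can show.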
